A study of Mus musculus with 6 samples.

Results

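The smooth muscle contractile genes are 10 genes of the contractile apparatus of smooth muscle cells and of its control: Acta2, Actg2, Myh11, Tagln, Cnn1, Smtn, Des, Synpo2, Lmod1 and Myocd. Members were found as the probe sets whose single gene symbol in the platform annotation was one of these names, which gave 18 of the 45101 probe sets on the array and 10 of the 18193 genes analysed. They were compared between mouse lung cells of 2 genotypes on 6 Affymetrix expression arrays, 3 arrays labelled Bmi1 wild-type and 3 labelled Bmi1 mutant, the latter with the genotype Bmi1 null. All mice were females 4 months old on a mixed Bl6/129 background. Bmi1 encodes a Polycomb protein that helps to keep developmental genes silent. The cells were taken from digested lungs by flow cytometry as live cells without CD31, an endothelial surface protein, or CD45, a surface protein of blood cells, and were not cultured. The labels number the 3 arrays of each genotype as biological replicates. They do not say which part of Bmi1 is missing or whether the loss is limited to a cell type. Whether an array holds RNA of 1 mouse or of a pool is not given either. The tests therefore set the difference between the genotypes only against the spread of these samples.

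Smooth muscle cells in the lung wrap the airways and the blood vessels, and fibroblasts that turn into myofibroblasts can make some of the same proteins. Contraction starts when calcium activates myosin light chain kinase, which lets smooth muscle myosin pull on filaments of smooth muscle actin. Most contractile genes are switched on together by serum response factor, encoded by Srf, which binds a DNA element called the CArG box and needs the coactivator myocardin, encoded by Myocd. The element has CC and GG at its ends and 6 bases of A or T between them.

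The promoter of Acta2 is shown because its CArG boxes are the usual example of this control. RefSeq promoter windows (build GRCm38.p6, from 250 bases before to 50 after a gene's start) were given for 6 of the 10 members, Acta2, Cnn1, Des, Lmod1, Synpo2 and Smtn. The search read both strands, on which the element reads alike. No member window held an exact CArG box, which 1.63% of the 32851 windows held. A CArG box with 1 G or C among the 6 middle bases was in 8.50% of all windows and in the window of 1 member, Acta2. Acta2 had 2 such matches, starting 84 and 34 bases before the start given in the table. Both are in capitals in the 120 bases before that start, chr19:34255374-34255493 on the minus strand, read 5′ to 3′.
Acta2: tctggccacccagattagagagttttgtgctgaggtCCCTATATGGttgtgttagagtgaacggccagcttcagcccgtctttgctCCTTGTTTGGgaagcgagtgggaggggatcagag
A match of letters is a description of the window, and no binding was measured here.

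A few facts of the arrays bear on all values. Signals are deposited intensities on a linear scale, equalised between arrays, with a median per array of 97.4 to 114, and signals of different probe sets cannot be set against each other. A summed signal of a gene list is therefore weighted by its bright probe sets and does not give the share of each gene. Signals of 3′ over 5′ control probe sets stood at 4.85 to 5.94 for Gapdh and 0.949 to 1.002 for Actb, and the genotypes overlapped in both. Bmi1 itself read no lower under the mutant label. Its 2 probe sets read 1047 ± 102 and 588 ± 83.4 in wild type (SD, n = 3) and 1446 ± 151 and 665 ± 147 in the mutant-labelled arrays (SD, n = 3; exact permutation p = 0.1 and 0.7). Directions therefore rest on the labels, and the arrays are called mutant-labelled. RNA of the genes for both sorted-out proteins was still read: Ptprc, which encodes CD45, read from 5048 to 8507 and Pecam1, which encodes CD31, from 1907 to 3185 over the 6 arrays. Purity of the sort was not measured here.

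All 10 contractile genes had a mean log2 signal in the mutant-labelled arrays above that in wild type, and none passed the test. The 3 wild-type arrays differed widely from each other, and in each member their log2 signals spread more than those of the 3 mutant-labelled arrays. On the linear scale the mutant-labelled arrays spread more for Cnn1, Des, Myocd and Smtn. Differences are given as mutant-labelled minus wild type on the scale of log2(signal + 16), which understates the change of dim genes, with the standard error and adjusted p of a limma fit over all genes. Across the members the differences ran from 0.48 for Smtn to 2.85 for Cnn1, with a median of 1.42, against a median of 0.01 over all genes. At an adjusted p under 0.05, 0 of 10 members were called, the smallest being 0.138 for Cnn1. Over all genes 0.412% were called higher (75) and 0.511% lower (93), and with median centring of the arrays these counts were 120 and 88. At an unadjusted p under 0.05, without correction for the number of genes, 9 of 10 members lay above wild type, against 7.51% of all genes. The groups did not overlap for 4 of 10 members, Acta2, Tagln, Cnn1 and Actg2, against 10.4% of all genes above wild type without overlap. In sorted bulk cells a larger share of smooth muscle cells and more RNA per cell cannot be told apart.

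**Figure D1:**
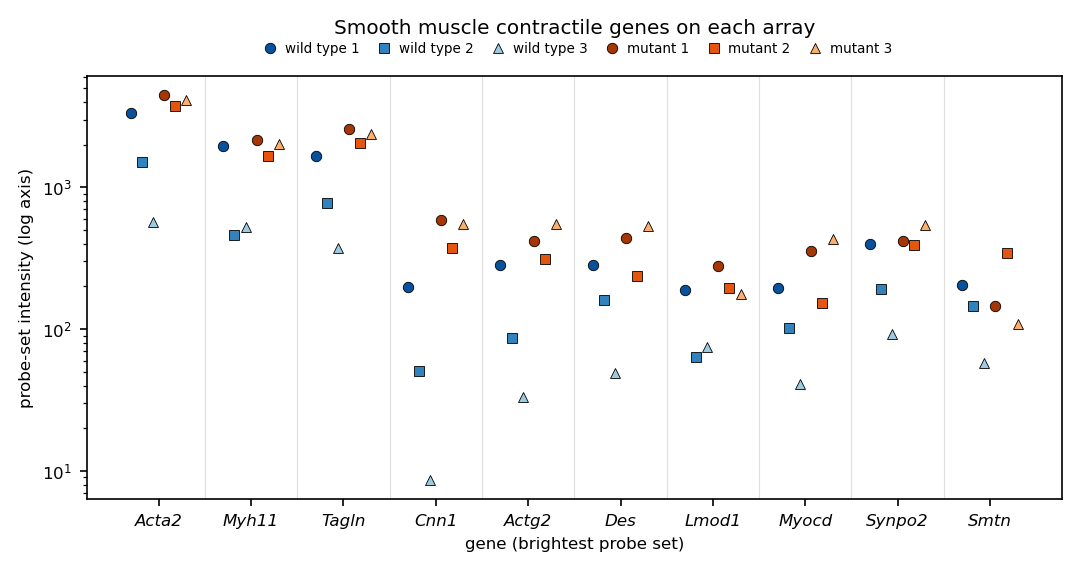
Signal of the brightest probe set of each contractile gene (log axis) on the 3 wild-type arrays (blue) and the 3 mutant-labelled arrays (orange). In all 10 genes wild-type replicate 1 is the highest wild-type array, and in all 10 wild-type replicate 3 lies below every mutant-labelled array.

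Acta2 encodes the smooth muscle alpha actin, the filament on which the motor pulls, and Actg2 the gamma actin of smooth muscle. Acta2 read 3334, 1511 and 569 in wild-type replicates 1, 2 and 3, against 4443, 3750 and 4115 in mutant-labelled replicates 1, 2 and 3, the order kept throughout. The groups did not overlap, and the wild-type arrays spread over 5.86 times while the mutant-labelled arrays were nearly level. The means were 1804 ± 1406 and 4103 ± 347 (SD, n = 3 each), and the log2 values differed by 1.51 ± 0.57 (SE, adjusted p = 0.298, exact permutation p = 0.1, the smallest that 3 arrays against 3 allow). Actg2 read 283, 87.2 and 33.0 in wild type against 420, 310 and 552 in the mutant-labelled arrays. The lowest mutant-labelled array, replicate 2, lay just above wild-type replicate 1. The log2 difference of Actg2 was 1.91 ± 0.62 (SE, adjusted p = 0.229). The suffix of the Acta2 probe set marks probes shared between transcripts, so its signal may hold other actins, which are close to it in sequence.

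Myh11 encodes the smooth muscle myosin heavy chain, the motor itself and a gene largely restricted to smooth muscle. It read 1950, 461 and 523 in wild type against 2148, 1653 and 2007 in the mutant-labelled arrays. Wild-type replicate 1 lay within the mutant-labelled arrays, above replicate 2 of them, and both other wild-type arrays were far below. The log2 difference was 1.28 ± 0.52 (SE, adjusted p = 0.331, exact permutation p = 0.2). Without wild-type replicate 1 it was 1.94 and Myh11 was called (adjusted p = 0.0450). That fit has 2 wild-type arrays, both on the low side, and 65 genes were called in it.

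Tagln, Cnn1 and Smtn encode proteins that bind actin filaments: transgelin, calponin, which can hold the motor back, and smoothelin of fully contractile cells. Tagln read 1657, 776 and 374 in wild type against 2587, 2063 and 2379 in the mutant-labelled arrays. The groups did not overlap, and the log2 difference was 1.55 ± 0.49 (SE, adjusted p = 0.220). Cnn1 had the greatest difference of the 10. It read 199, 50.9 and 8.66 in wild type against 585, 375 and 554 in the mutant-labelled arrays. The lowest mutant-labelled array was well above the highest wild-type array. The means were 86.1 ± 99.9 and 505 ± 113 (SD, n = 3 each), and the log2 values differed by 2.85 ± 0.72 (SE, adjusted p = 0.138, exact permutation p = 0.1). Its lowest wild-type signal is below the offset of 16, so the size depends on that offset. Smtn departed from the other members. It read 206, 146 and 57.4 in wild type against 146, 343 and 108 in the mutant-labelled arrays. The groups overlapped, and mutant-labelled replicate 2 alone lay above wild-type replicate 1. The log2 difference of Smtn was 0.48, with a 95% interval from -0.76 to 1.72 (adjusted p = 0.742), and without wild-type replicate 3 it was 0.03.

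Des, Synpo2 and Lmod1 belong to the frame and the filaments of the contractile cell. Des encodes desmin, the intermediate filament of muscle, and read 284, 160 and 48.7 in wild type against 437, 238 and 531 in the mutant-labelled arrays. Mutant-labelled replicate 2 lay below wild-type replicate 1, so the groups overlapped, and the log2 difference was 1.40 ± 0.57 (SE, adjusted p = 0.332). Synpo2 encodes synaptopodin 2, an actin-binding protein, and read 401, 193 and 92.8 in wild type against 417, 390 and 541 in the mutant-labelled arrays. Wild-type replicate 1 was level with the lower mutant-labelled arrays, and the log2 difference was 1.12 ± 0.46 (SE, adjusted p = 0.335). Lmod1 encodes leiomodin 1, which starts new actin filaments, and read 189, 63.9 and 75.1 in wild type against 278, 196 and 176 in the mutant-labelled arrays. As in Myh11, the lowest array was wild-type replicate 2. The log2 difference of Lmod1 was 1.00 ± 0.38 (SE, adjusted p = 0.300).

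Myocd, the coactivator of Srf, read 196, 101 and 40.8 in wild type against 353, 152 and 428 in the mutant-labelled arrays. Mutant-labelled replicate 2 lay between wild-type replicates 1 and 2, and the log2 difference was 1.43 ± 0.55 (SE, adjusted p = 0.304). The second probe set of Myocd was dim, at 7.79, 7.05 and 2.91 against 11.1, 63.5 and 32.5, and did not overlap.

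The other probe sets of the members showed smaller differences than the brightest ones. Over the 18 probe sets, fitted with all 45037 probe sets that are not controls, 17 lay above 0 and 0 were called, while 0.404% of all probe sets were called. At an unadjusted p under 0.05, 10 of the 18 lay above wild type, against 5.43% of all probe sets. The further probe sets of Acta2, which reached a signal of 82.9 at most, differed by 0.88 and 0.42. The second of Myh11 differed by 0.11 (signals 59.3 to 127), and the second of Des by -0.28 at signals of 22.5 or less. Synpo2 has 4 probe sets, and the 3 others differed by 0.63, 0.28 and 0.01. The differences given by the probe sets of Synpo2 thus disagree in size, and the files do not say which transcripts each reads.

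**Figure D2:**
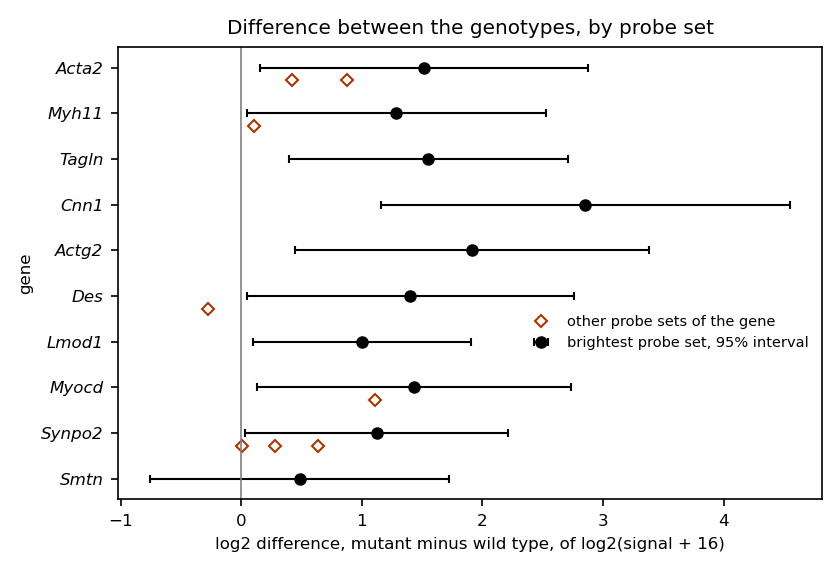
Log2 difference, mutant-labelled minus wild type, of the brightest probe set of each contractile gene (black, bars are 95% intervals of the limma fit before any correction for the number of genes) and of the other probe sets of the same gene (open diamonds). The intervals of 9 genes lie above 0, that of Smtn does not, and the other probe sets lie closer to 0.

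What the members shared most was their spread among the wild-type arrays. Wild-type replicate 1 was the highest wild-type array in 10 of 10 members, against 34.6% of all genes. Wild-type replicate 3 was the lowest of all 6 arrays in 8 of 10, against 17.1% of all genes, and in Myh11 and Lmod1 it was wild-type replicate 2. The standard deviation of log2 signals in wild type ran from 0.74 to 1.56 over the members, with a median of 1.09, and was larger than in the mutant-labelled arrays for all 10. Over all genes its median was 0.24, and 4.87% of genes had a wild-type standard deviation as large as the smallest among the members. In the mutant-labelled arrays the members' median standard deviation was 0.33, against 0.28 over all genes.

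Averaged over the 10 members, the log2 signal was 8.95, 7.76 and 6.84 across the wild-type arrays and 9.42, 9.08 and 9.41 across the mutant-labelled ones. The gap between wild-type replicates 1 and 3 was therefore larger than that between the genotypes, whose means were 7.85 ± 1.06 and 9.30 ± 0.19 (SD, n = 3 each). The mutant-labelled mean lay 0.36 above wild-type replicate 1, 1.55 above replicate 2 and 2.46 above replicate 3. Against wild-type replicate 1 alone, which is a comparison with no replicate, the difference ran from -0.20 for Smtn and -0.02 for Myh11 to 1.25 for Cnn1. Without wild-type replicate 3 the members' median difference was 0.90 and without wild-type replicate 1 it was 1.92.

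Other genes of the contractile machinery, from a list of 26 measured genes, had 20 above 0 and 6 below, with a median of 0.30 and 0 called (6 at an unadjusted p under 0.05). All 6 at that unadjusted p lay above wild type, against 7.51% of all genes. Some genes of the list were ordered over the arrays much as the members were. Tpm2, the beta tropomyosin that lies along the actin filament, read 3882, 1435 and 597 in wild type and 5590, 4477 and 6116 under the mutant label, differing on the log2 scale by 1.83 (adjusted p = 0.246). Myl9, the regulatory light chain of the motor, read 1986, 658 and 458 against 3163, 3354 and 2660, also 1.83 (adjusted p = 0.169). In both genes the groups did not overlap. Pdlim3, a protein that ties actin to alpha-actinin, had the smallest p of that list, with 175, 204 and 65.3 against 480, 775 and 498, a log2 difference of 1.96 (adjusted p = 0.0887). Genes of wider use differed less: the caldesmon gene Cald1 by 0.66 (adjusted p = 0.254), the light chain kinase gene Mylk by 0.47 (adjusted p = 0.356), Tpm1 by 0.34 (adjusted p = 0.462) and Ppp1r12b, of myosin phosphatase, by 0.58 (adjusted p = 0.165).

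The regulators of the contractile program other than Myocd had a small median difference. Of 22 measured genes, 16 lay above 0 and 6 below, with a median of 0.08 and 0 called (1 at an unadjusted p under 0.05). Over all genes, 7.51% lay above wild type at that unadjusted p. Srf read 6054, 5649 and 5001 in wild type and 6236, 7470 and 5505 under the mutant label, differing on the log2 scale by 0.19 (adjusted p = 0.697), and the groups overlapped. That is the brighter of its 2 probe sets, and with the mean of both the difference was 0.62 (adjusted p = 0.351). The Notch target genes Hey2 (0.89, adjusted p = 0.224) and Heyl (0.83, adjusted p = 0.404) and the transcription factor gene Gata6 (0.41, adjusted p = 0.418) had the smallest p. Among 16 measured receptors and channels, 15 lay above 0, with a median of 0.41 and 0 called (5 at an unadjusted p under 0.05). All 5 lay above wild type, against the same 7.51% of all genes. The angiotensin receptor gene Agtr1a differed by 0.88 (adjusted p = 0.138), the calcium channel gene Cacna1c by 0.98 (adjusted p = 0.245) and the prostacyclin receptor gene Ptgir by 0.60 (adjusted p = 0.253).

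The actins that work in all cells were nearly level. The cytoplasmic actins Actb and Actg1 differed by 0.07 (adjusted p = 0.900) and 0.05 (adjusted p = 0.930), and Actg1 read 12952 to 14878 in wild type against 13263 to 15001 under the mutant label. Actc1, the cardiac actin, did follow the members: it read 667, 281 and 99.1 in wild type and 1141, 441 and 1053 under the mutant label, differing on the log2 scale by 1.53 (adjusted p = 0.357). Acta1, the skeletal actin, was dim at 3.28 to 54.2, with a log2 difference of 1.09 (adjusted p = 0.194). Smtnl2, a relative of Smtn, differed by 0.69 (adjusted p = 0.345). Over the 19 measured relatives 17 lay above 0, with a median of 0.26 and 0 called (1 at an unadjusted p under 0.05). At that unadjusted p 7.51% of all genes lay above wild type.

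Heart and skeletal muscle share Des and some actins with smooth muscle, so their markers were read as well. Of 20 such markers 16 had a mean below 100 in both genotypes, 11 lay above 0 and 9 below, the median was 0.14, and 0 were called (2 at an unadjusted p under 0.05). Of these 2 markers, 1 lay above wild type, against 7.51% of all genes. The list's summed signal was 4934 to 6261 in wild type against 6936 to 7563 under the mutant label. The brightest probe set in that sum was that of Myh7, a muscle myosin heavy chain gene. It read 4008 to 5076 and 5549 to 5743 (log2 difference 0.30, adjusted p = 0.463). Myh6, a cardiac myosin heavy chain, read 100 to 113 in wild type against 87.3 to 213 under the mutant label, and Tnni3, a cardiac troponin, 39.5 to 50.4 and 49.1 to 75.6. Tnnt2, another troponin gene, read 256, 280 and 84.2 against 1127, 398 and 897, a log2 difference of 1.91 (adjusted p = 0.172), and Actn2 read 59.2 to 100 against 4.51 to 30.6 (-1.57, adjusted p = 0.0956). The part of such cells in the members' values was not tested.

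Fibroblast and pericyte markers were also higher on average in the mutant-labelled arrays. The 22 fibroblast markers had a median difference of 0.71, 21 above 0, 11 at an unadjusted p under 0.05, 8 without overlap above wild type, and 1 called, the collagen gene Col1a1 (1.37, adjusted p = 0.0482). Over all genes, 7.51% lay above wild type at an unadjusted p under 0.05, 10.4% did so without overlap, and 0.412% were called higher. Next came the elastin gene Eln (1.13, adjusted p = 0.0794) and the collagen gene Col6a1 (1.08, adjusted p = 0.0837). Pdgfra, a receptor of many lung fibroblasts, differed by 0.67 (adjusted p = 0.596). The list's mean log2 signal was 11.2, 10.9 and 10.3 across the wild-type arrays and 11.5 in each mutant-labelled array, and its summed signal was 47268 to 84649 in wild type against 95880 to 102382 under the mutant label. Wild-type replicate 3 was the lowest here too, but the gap was smaller: relative to the fibroblast mean, the contractile mean was at -2.29, -3.09 and -3.45 in wild type and -2.08, -2.38 and -2.12 in the mutant-labelled arrays.

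The 14 pericyte markers, of the cells that cover capillaries, had a median of 0.58, with 12 above 0, 7 at an unadjusted p under 0.05, 7 without overlap above wild type, and 1 called. The shares over all genes were again 7.51%, 10.4% and 0.412%. Steap4, which encodes a metal reductase, was called (2.34, adjusted p = 0.0404), and it read 2156, 847 and 1633 in wild type against 8440, 7547 and 6282 in the mutant-labelled arrays. Lamc3 (1.19, adjusted p = 0.0508) and Rgs5 (1.83, adjusted p = 0.0621) missed the threshold, and both were called with median centring of the arrays, as was Eln. The mean of the list was 8.86, 8.28 and 8.50 in wild type against 9.31, 9.15 and 9.35 in the mutant-labelled arrays. Its lowest array was wild-type replicate 2, as for Myh11 and Lmod1, not replicate 3. The list's summed signal was 6163 to 9173 in wild type against 16021 to 17902 under the mutant label. In that sum Steap4 had means of 1546 in wild type and 7423 under the mutant label. The markers of the list whose groups overlapped differed by -0.26 to 0.36. The parts of fibroblasts and pericytes in the members' differences were not tested.

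Markers of the other cell types in the lung were read in the same way. The mean log2 signal of 14 epithelial markers was 11.5 to 11.8 in wild type against 11.7 to 11.9 under the mutant label, with a median difference of 0.14 and 0 called (1 at an unadjusted p under 0.05). Epcam, of all epithelial cells, differed by -0.28 (adjusted p = 0.677), and Foxj1, of ciliated cells, by 0.68 (adjusted p = 0.204). The surfactant gene Sftpb and the alveolar gene Ager differed by 0.34 (adjusted p = 0.349) and 0.26 (adjusted p = 0.564). The 9 mesothelial markers had a median of 0.04 and 0 called (1 at an unadjusted p under 0.05), with Krt19 at -0.53 (adjusted p = 0.303), Msln at 0.30 (adjusted p = 0.646) and Krt8 at 0.19 (adjusted p = 0.653). The 11 endothelial markers had a median of 0.10 and 0 called (1 at an unadjusted p under 0.05), but their mean was also highest in wild-type replicate 1 (11.0, against 10.3 and 10.5 in the others and 10.7 to 10.9 under the mutant label), and Emcn, Kdr and Pecam1 differed by 0.82 (adjusted p = 0.273), 0.64 (adjusted p = 0.402) and 0.40 (adjusted p = 0.427). The 13 hematopoietic markers had a median of -0.42, with 6 above 0 and 7 below. At an unadjusted p under 0.05 there were 9, of which 3 lay above wild type. Called lower were 3, the lymphocyte genes Ms4a1 (-3.40, adjusted p = 0.00314), Ncr1 (-3.23, adjusted p = 0.0116) and Cd79a (-2.34, adjusted p = 0.0386). Over all genes 0.511% were called lower, and 7.51% lay above wild type at an unadjusted p under 0.05. Ptprc differed by -0.42 (adjusted p = 0.369). The myeloid genes of that list went different ways, and none was called. S100a8 (1.46, adjusted p = 0.0899), S100a9 (signals of 5997 to 8070 against 10777 to 19193, adjusted p = 0.115) and Itgam (1.06, adjusted p = 0.229) lay above wild type without overlap. Itgax lay below without overlap, with means of 2762 in wild type and 1380 under the mutant label (-0.99, adjusted p = 0.0763). Csf1r (0.25), Lyz2 (0.10) and Cd68 (0.05) overlapped. These myeloid genes and Myh7 were named after their values were seen. Within wild type the mean of the list was lowest in replicate 1, at 10.9 against 11.3 and 11.2, and was 10.3 to 10.7 in the mutant-labelled arrays.

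**Figure D3:**
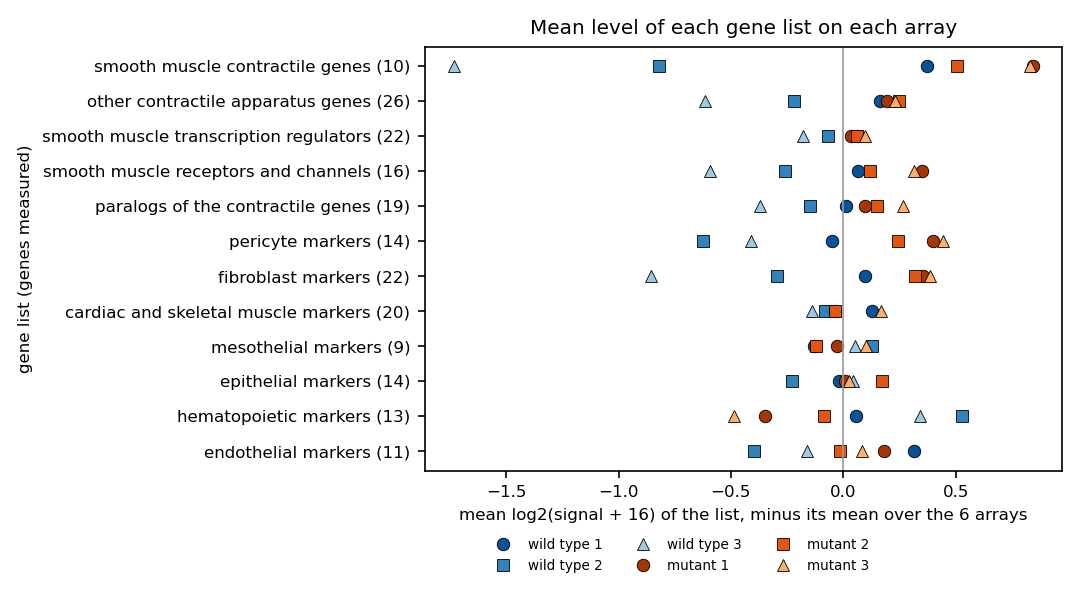
Mean of log2(signal + 16) of each gene list on each array, minus the list's own mean over the 6 arrays, with wild-type arrays in blue and mutant-labelled arrays in orange. The contractile genes have the widest range of the 12 lists drawn. Wild-type replicates 2 and 3 are the lowest arrays in every list but the mesothelial, epithelial and hematopoietic ones.

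The genes most like the members were found over the 6 arrays by the root mean square distance of log2 signals, after subtracting each gene's own mean, from the average of the 8 members with a mean signal of 200 or more (all but Lmod1 and Smtn). Among 9691 other genes of that brightness the distance had a median of 1.08, and the 6 nearest were Tpm2 (0.16), Prrx1 (0.23), Ccbe1 (0.23), Actc1 (0.28), Adamts15 (0.31) and Myl9 (0.33). For the 8 members that make up the average it ran from 0.14 for Tagln to 0.66 for Cnn1. Being part of the average brings them nearer to it. Of the members outside the average, Lmod1 was at 0.56 and Smtn at 0.90. Prrx1, a homeobox gene of mesenchymal cells, read 368, 214 and 99.3 in wild type against 622, 616 and 761 in the mutant-labelled arrays. Its groups did not overlap, and the log2 difference was 1.65 (adjusted p = 0.138). Ccbe1, a secreted protein of lymphatic growth, differed by 1.46 (adjusted p = 0.291), and the metalloprotease gene Adamts15 by 1.72 (adjusted p = 0.151). None of the 6 was called. The average they were chosen by already holds the difference between the genotypes, so a difference in the same direction came with the choice.

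**Figure D4:**
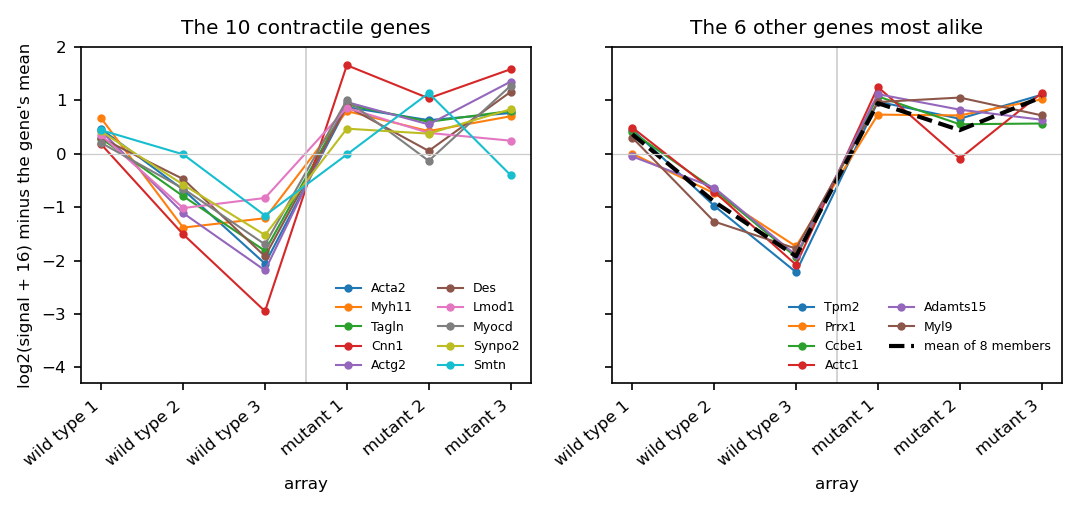
Log2(signal + 16) minus the gene's own mean on each of the 6 arrays, for the 10 contractile genes (left) and for the 6 other genes nearest to their average (right, dashed line for the average of 8 members). Lines join the values of 1 gene and show no order of replicates, and Smtn is the member that departs most, with its highest value in mutant-labelled replicate 2.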

How the data were processed

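The 6 arrays were grouped by the genotype in their labels. The authors deposited probe-set intensities and Affymetrix Expression Console 1.1 is named as the software, per the submitters' processing notes. How probes were summarized is not given in the sources used here. The trimmed mean, without 2% at each end, was 500.002 on every array, so a shift of all genes together cannot be seen. Precision is limited by the number of arrays. The 64 control probe sets were left out, as were, at gene level, 932 probe sets with several symbols and 9160 with none. A gene was represented by its brightest probe set by mean log2 signal. Values of log2(intensity + 16) were fitted with lmFit and eBayes of limma 3.58.1 (R 4.3.3), with Benjamini-Hochberg adjustment over all 18193 genes, or over all 45037 probe sets for the fit by probe set. Exact permutation tests were two-sided. The fit was tested on simulated data.

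The members, the 11 other gene lists and the tests were chosen with earlier results of these data known. Named were all members, a fixed set of other genes, the 3 smallest p and all called genes of each list, and the 6 genes most alike. Promoters came from RefSeq, searched with Python 3.11.15. Figures were drawn with matplotlib 3.10.9.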

Additional observations from a re-analysis of the deposited data

How the results depend on the processing

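No member changed the sign of its difference in 16 other settings, and 153 of 154 member values stayed on the same side of the threshold. Left out in turn, the arrays gave 0 to 1 called members (Myh11 without wild-type replicate 1) and medians of 0.90 (without wild-type replicate 3) to 1.92 (without wild-type replicate 1). The median was 0.97 with the mean and 0.85 with the median of a gene's probe sets, 1.17 for an offset of 64 and 1.53 for one of 1. Only 4 of the 10 members lay above the median level of all genes. The 9 members at an unadjusted p under 0.05 became 3 with an offset of 1, 5 with the mean or median of probe sets, and 3 without wild-type replicate 2 or 3 or mutant replicate 1 or 3, and 5 without mutant replicate 2. Arrays of the same replicate number shared little of their deviations (correlations 0.0735, 0.0485 and 0.0319), so the numbers were not taken as pairs. With the replicate block 0 members and 0 of all genes were called, with 7 members at an unadjusted p under 0.05. Counts over all genes, 168 in the fit reported, ran from 0 with that block to 383 (a variance prior with trend) and were 65, 2 and 8 when wild-type replicate 1, 2 or 3 was dropped, 23, 61 and 76 when mutant replicate 1, 2 or 3 was dropped, 33 and 265 for offsets of 1 and 64, and 284 among genes above the median level. The calls of Steap4 and Col1a1 were each lost in all 6 fits without 1 array and in 2 and 5 of the 10 other settings, that of Cd79a in 5 of the 6 and 2 of the 10, that of Ncr1 in 3 of 6 and 2 of 9, and that of Ms4a1 in 0 of 6 and 1 of 10. The causes were not tested. Dim probe sets limit the sizes given for Cnn1, Acta1 and the second probe sets of Des and Myocd.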

Other observations

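The following genes were chosen after their values were seen. Ednrb, an endothelin receptor, had the greatest difference of the receptor list, reading 1204, 557 and 136 in wild type and 2130, 1699 and 1763 in the mutant-labelled arrays (log2 difference 1.98, adjusted p = 0.258). The non-muscle myosin gene Myh10 read 4517, 3532 and 1503 in wild type and 5199, 4139 and 5379 in the mutant-labelled arrays (0.75, adjusted p = 0.453). Some genes had their lowest array in wild-type replicate 3, as 8 members did, with a small difference between the genotypes. Pgm5, an adhesion protein of muscle, read 1192, 855 and 203 in wild type and 713, 622 and 838 in the mutant-labelled arrays (0.26, adjusted p = 0.891). Itga8, an integrin of mesenchymal cells, read 8854, 7723 and 3515 against 5970, 6760 and 7816 (0.13, adjusted p = 0.912), and the intermediate filament gene Synm 1146, 637 and 399 against 698, 576 and 580 (-0.11, adjusted p = 0.932).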
